A study of Mus musculus with 3 samples.

Results

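Cycling leukocytes are immune cells caught while copying or dividing their DNA. They were sought here among single cells of mouse inguinal fat, a depot beneath groin skin. They were chosen by their own measured UMIs (unique molecular identifiers, each standing for 1 captured RNA molecule). A barcode counted as one if 500 or more genes were seen in it, mitochondrial UMIs were 15% or less, and it held a UMI of at least 3 of the 7 cycle genes Mki67, Top2a, Ube2c, Birc5, Pclaf, Rrm2 and Cdk1, at least 2 UMIs of Ptprc and Cd52 together, and at most 1 UMI of Col1a1 and Pecam1 together. The rule found 147 such cells among 8186 barcodes that passed the gene and mitochondrial limits. The wild-type library held 66 of them, the Pdgfra-Cre library 9 and the Pdgfrb-Cre library 72, and this order of libraries is kept throughout.

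The study deleted telomerase from mesenchymal progenitors of mice and profiled the stromal and vascular cells of the fat pad. There were 3 libraries, 1 per genotype: TERT +/+ (wild type, titled PBS_SAT with no explanation of PBS) and 2 with TERT fl/fl, one of them carrying Pdgfra-Cre and the other Pdgfrb-Cre. The gene makes telomerase's catalytic subunit, and each Cre is driven by the promoter of a platelet-derived growth factor receptor used by mesenchymal cells. Leukocytes are therefore neighbours of the targeted cells by design, and Tert RNA was too sparse to check the deletion in any of them. Age, sex, number of animals and pooling are not stated in the labels, all groups share the fat pad and a preparation that removed dead and red blood cells, and a difference between genotypes and a difference between libraries cannot be told apart.

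Cells that divide pass through S phase, in which DNA is replicated, and then through G2 and mitosis, in which chromosomes condense and separate. Replication genes are switched on by E2F factors and mitotic genes later by the DREAM and B-MYB complexes, so the RNAs of both programmes are scarce in resting lymphocytes. Well-known settings of lymphocyte division are germinal centres of lymphoid follicles, where B cells divide while mutating and switching their antibody genes, and the expansion of T cells after activation.

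The 7 cycle genes chose the cells, so their values are a description. In wild-type members Mki67, the proliferation antigen that coats mitotic chromosomes, was seen in 49 of 66 cells (517 CPM, counts scaled to a total of 1000000 UMIs), Top2a, the topoisomerase that untangles replicated DNA, in 51 of 66 (562 CPM), and Pclaf, which binds the replication clamp, in 58 of 66 (821 CPM). In Pdgfrb-Cre members the same genes were seen in 64, 61 and 67 of 72 cells, and in the Pdgfra-Cre library Mki67 in 8 of 9 cells and Top2a and Pclaf in all 9. Ptprc, the leukocyte surface phosphatase CD45, was found in 51 of 66, 8 of 9 and 70 of 72 members. Every marker given for these cells was thus present in each library.

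Start regions of 4 of these genes are shown because they hold the letters that S-phase and mitotic promoters are known for. They come from RefSeq on GRCm38.p6 and run from 250 bases before to 50 bases after the start, in the direction of the gene: Top2a at chr11:99024140-99024439 (minus strand), Ube2c at chr2:164769679-164769978 (plus), Cdk1 at chr10:69352863-69353162 (minus) and Pclaf at chr9:65890073-65890372 (plus). Capitals mark, on either strand, TTTGAA or TTCGAA (the cell cycle homology region, which reads TTCAAA when on the other strand), CCAAT (the NF-Y box, ATTGG on the other strand) and any of the E2F motifs TTTCCCGC, TTTGGCGC, TTTCGCGC and TTTGCCGC.
Top2a: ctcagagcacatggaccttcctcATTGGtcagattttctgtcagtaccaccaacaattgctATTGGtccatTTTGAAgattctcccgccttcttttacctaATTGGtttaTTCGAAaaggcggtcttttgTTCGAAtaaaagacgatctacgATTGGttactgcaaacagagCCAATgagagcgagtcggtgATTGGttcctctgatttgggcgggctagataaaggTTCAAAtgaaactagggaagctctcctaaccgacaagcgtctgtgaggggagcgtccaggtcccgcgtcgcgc
Ube2c: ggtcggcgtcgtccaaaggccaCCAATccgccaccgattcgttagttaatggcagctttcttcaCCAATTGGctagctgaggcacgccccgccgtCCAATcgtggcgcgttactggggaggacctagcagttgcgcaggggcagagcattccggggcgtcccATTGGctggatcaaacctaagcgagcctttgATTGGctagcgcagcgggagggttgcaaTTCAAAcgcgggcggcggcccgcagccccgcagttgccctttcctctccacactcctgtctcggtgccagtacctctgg
Cdk1: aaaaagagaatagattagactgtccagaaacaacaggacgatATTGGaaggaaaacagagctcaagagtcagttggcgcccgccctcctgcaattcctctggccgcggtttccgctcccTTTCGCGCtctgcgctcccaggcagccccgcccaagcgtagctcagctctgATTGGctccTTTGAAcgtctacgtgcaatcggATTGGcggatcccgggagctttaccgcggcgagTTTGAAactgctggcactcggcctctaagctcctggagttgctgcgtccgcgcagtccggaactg
Pclaf: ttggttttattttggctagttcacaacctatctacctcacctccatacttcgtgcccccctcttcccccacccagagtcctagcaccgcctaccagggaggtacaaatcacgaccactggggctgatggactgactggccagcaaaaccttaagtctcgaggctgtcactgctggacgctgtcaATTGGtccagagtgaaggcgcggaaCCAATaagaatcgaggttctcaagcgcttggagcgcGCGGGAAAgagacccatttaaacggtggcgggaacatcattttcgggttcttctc

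TTTGAA or TTCGAA stood in 4 of the 7 rule genes' start regions (Cdk1, Mki67, Top2a and Ube2c), against 19.2% of 32851 start regions of the same length. CCAAT stood in 6 of the 7, all but Birc5, against 37.4%, and an E2F motif in Cdk1 and Pclaf, against 2.26%. Cdk1 held all 3 kinds. In Ube2c 2 CCAAT boxes on opposite strands overlapped. These are matches of letters in a set of genes picked for their cycle behaviour, and they are given as a description.

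Depth differed between libraries and bears on every share below. The files held 4124, 2310 and 4355 barcodes with 13352288, 14438471 and 30826733 UMIs, and 1534, 440 and 2888 of the kept barcodes counted as leukocytes by the rule's Ptprc, Cd52, Col1a1 and Pecam1 limits. Members had medians of 3386, 14422 and 19543.5 UMIs (lowest to highest 1116 to 78638, 2700 to 44395 and 1281 to 71124), against 3878, 5070.5 and 5053 in leukocytes with no UMI of the 7 genes. Wild-type members were thus no deeper than resting leukocytes, while members of both other libraries were deeper than theirs. For that reason shares are also given after each cell was thinned to 2000 UMIs, shallower cells being left out (283, 34 and 63 leukocytes, 14, 0 and 1 of them members). For cycling and lineage shares, the rule and the lineage assignment were applied again to the thinned counts. For subset, germinal centre and isotype genes, cells kept the class they had on all UMIs, and only those genes were read after thinning. No member's barcode recurred among the members of another library. Free RNA differed too: Cd79a, a B cell gene, had a UMI in 52 of 520 wild-type barcodes carrying endothelial markers, 0 of 150 in Pdgfra-Cre and 4 of 240 in Pdgfrb-Cre.

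Cycling cells made up 4.30% of wild-type leukocytes (66 of 1534, exact 95% Clopper-Pearson interval 3.34 to 5.44), 2.05% of Pdgfra-Cre leukocytes (9 of 440, 0.939 to 3.85) and 2.49% of Pdgfrb-Cre leukocytes (72 of 2888, 1.96 to 3.13). Among barcodes with at most 5% mitochondrial UMIs the share was 5.48% in wild type (37 of 675) and 5.02% in Pdgfrb-Cre (57 of 1136), a smaller gap. After thinning the shares were 2.81% (35 of 1245), 1.83% (7 of 382) and 1.88% (47 of 2504). The thinned intervals overlapped, from 1.97 to 3.89 in wild type and from 1.38 to 2.49 in Pdgfrb-Cre. With 1 library per genotype there was no replicate check and no test, and all intervals cover counting error only.

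The wild-type library held many cells just outside the rule's limits. Among its leukocytes 37 held 2 of the 7 genes and stayed outside, more than at any count inside, while 14 held 3, 17 held 4, 12 held 5, 14 held 6 and 9 held all 7. In Pdgfrb-Cre 18 held 2, 13 held 3, 4 held 4, 6 held 5, 13 held 6 and 36 held 7, and in Pdgfra-Cre 4 held 2 and 5 held all 7. With the limit at 2 genes the wild-type share of leukocytes was 6.71%. The wild-type members were spread evenly over the counts, whereas 36 of the 72 Pdgfrb-Cre members held every gene. At the leukocyte limit 10 wild-type barcodes had 1 UMI of Ptprc and Cd52 and 9 had 2, and no Pdgfrb-Cre barcode had 1 or 2. At the limit on Col1a1 and Pecam1, 12 wild-type members held 1 UMI and 2 barcodes held 2, against 20 and 7 in Pdgfrb-Cre. All told, 66 of 132 wild-type barcodes with 3 or more cycle genes failed the leukocyte or the exclusion limit, as did 19 of 91 in Pdgfrb-Cre and none of 9 in Pdgfra-Cre. Of those outside, 6 in wild type and 14 in Pdgfrb-Cre had enough Ptprc and Cd52 UMIs and failed only the Col1a1 and Pecam1 limit. Another 25 and 2 failed only the leukocyte limit, and 35 and 3 failed both. Barcodes outside had medians of 2432 UMIs in wild type and 36983 UMIs in Pdgfrb-Cre.

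B and T cells were the main lineages among the members, as they were among all leukocytes. A member was assigned to the lineage, among B, T, plasma, natural killer (NK), myeloid and dendritic, whose list of 8 genes had most members with a UMI, with at least 2 and more than any other list. Wild-type members were 29 B, 27 T, 1 plasma, 1 NK, 2 myeloid and 6 unresolved cells. Pdgfra-Cre members were 2 B, 4 T, 1 NK, 1 dendritic and 1 unresolved cell, and Pdgfrb-Cre members were 10 B, 48 T, 2 plasma, 1 NK, 5 myeloid, 4 dendritic and 2 unresolved cells. B cells were 43.9% of wild-type members (31.7 to 56.7) and 13.9% of Pdgfrb-Cre members (6.87 to 24.1), and T cells 40.9% (29.0 to 53.7) and 66.7% (54.6 to 77.3). At the rule's own settings the wild-type and Pdgfrb-Cre intervals did not overlap for either lineage. The libraries also differed in their leukocytes as a whole. Of 1534 wild-type leukocytes 635 were B and 654 T, and of 2888 Pdgfrb-Cre leukocytes 881 were B and 1710 T. Shares within each lineage are given below. The wild-type shares depended on the settings: with at most 5% mitochondrial UMIs members were 27% B and 54.1% T in wild type (10 and 20 of 37) and 8.77% B and 70.2% T in Pdgfrb-Cre (5 and 40 of 57). By single lineage genes they were 28.8% B and 24.2% T in wild type and 6.94% B and 63.9% T in Pdgfrb-Cre. Intervals were not made for these other settings, so whether the libraries stay apart there is not shown.

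**Figure D1:**
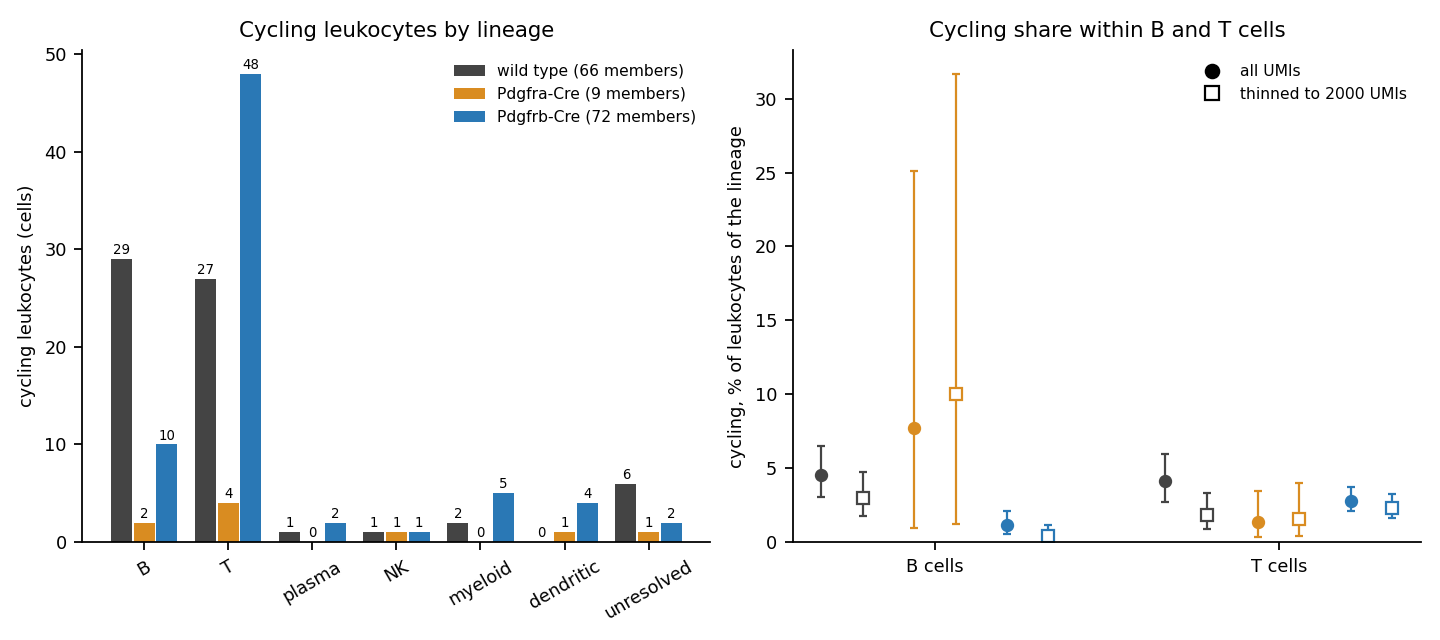
Left, number of cycling leukocytes of each lineage in the 3 libraries, with the count above each bar. Right, cycling cells as a percentage of all leukocytes of the B or T lineage, with exact 95% intervals for counting error, from all UMIs (filled circles) and after thinning each cell to 2000 UMIs (open squares). Wild-type B cells sit at 4.57% and Pdgfrb-Cre B cells at 1.14%.

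Levels of single genes show how sparse the lineage calls were. Most of the genes given here are among those that assigned the cells, so their shares by lineage restate the assignment. Cd79a, a signalling chain of the B cell receptor, had a UMI in 31 of 66, 2 of 9 and 13 of 72 members, and Cd3e, a chain of the T cell receptor complex, in 17, 3 and 48. Lyz2, the lysozyme of myeloid cells, was seen in 5, 1 and 9 members. Mzb1, which helps fold immunoglobulin and is used by B and plasma cells alike, was seen in 23, 2 and 13. Within wild type Cd79a was present in 26 of 29 B members and 1 of 27 T members, against 28 of 519 other T cells, so its share in T members was at the level of free RNA. Cd3e was present in 16 of 27 T members and 1 of 29 B members, and Lyz2 in 0 of 27 T members and 2 of 29 B members, against 38 of 551 other B cells. Igkc, the kappa light chain, was found in 12 of 27 wild-type T members and 206 of 520 endothelial-marker barcodes and was not read as expression outside B and plasma cells.

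Of all wild-type B leukocytes, 4.57% were cycling (29 of 635, 3.08 to 6.49), against 1.14% in Pdgfrb-Cre (10 of 881, 0.546 to 2.08), and the few Pdgfra-Cre B cells gave 2 of 26. Thinned, these were 2.98% (17 of 571, 1.74 to 4.72), 0.407% (3 of 738, 0.0839 to 1.18) and 2 of 20. The wild-type and Pdgfrb-Cre intervals stayed apart either way. Of T leukocytes, 4.13% were cycling in wild type (27 of 654, 2.74 to 5.95), 1.36% in Pdgfra-Cre (4 of 294, 0.372 to 3.45) and 2.81% in Pdgfrb-Cre (48 of 1710, 2.08 to 3.70). Thinned, they were 1.82% (10 of 550), 1.59% (4 of 252) and 2.31% (33 of 1427), so the order of wild type and Pdgfrb-Cre turned over, and the intervals overlapped at either depth.

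**Figure D2:**
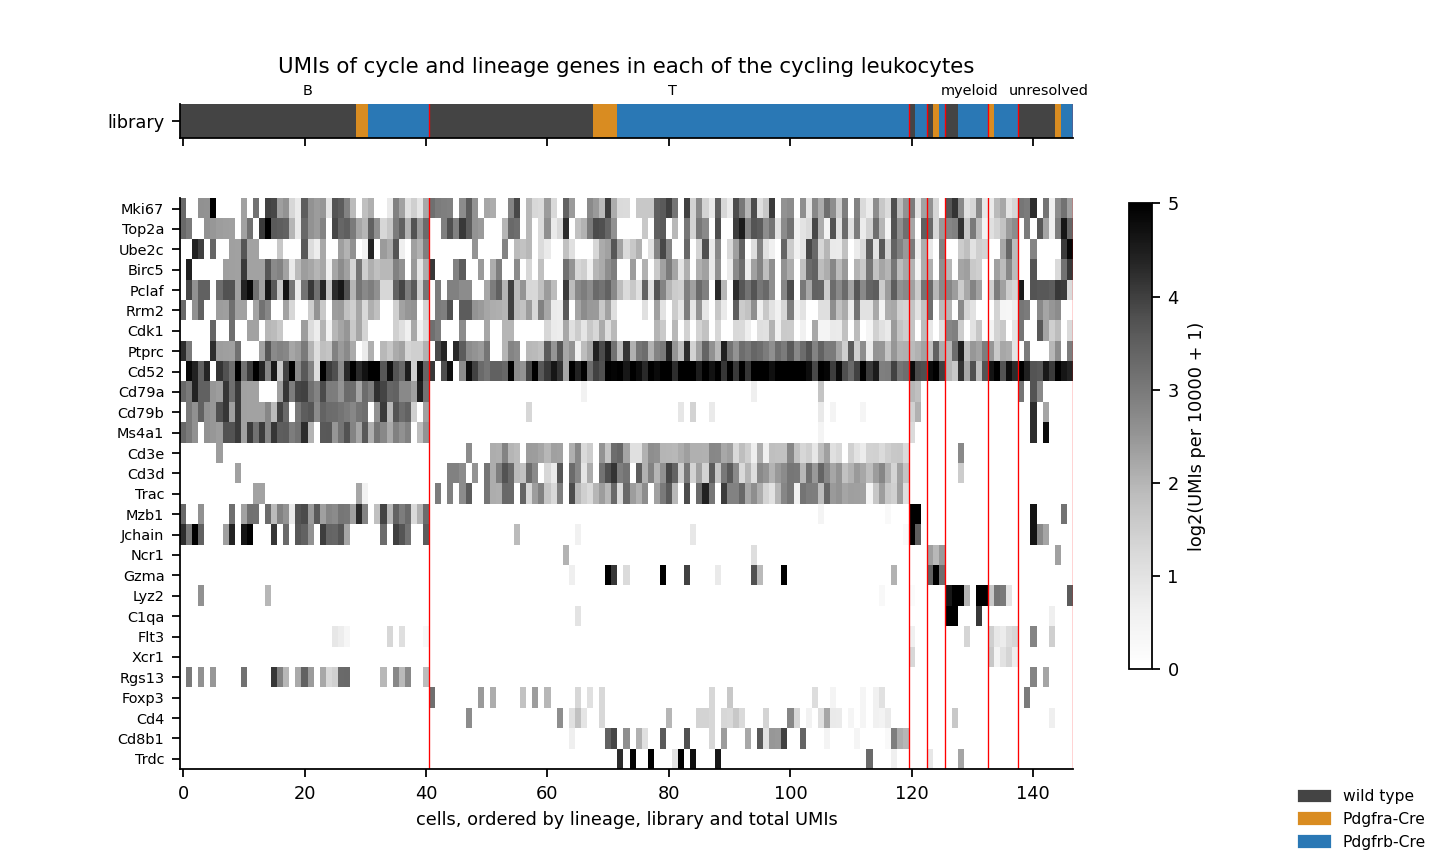
Each column is 1 of the 147 cycling leukocytes and each row a gene, shaded by log2(UMIs per 10000 + 1). Columns run through B, T, plasma, NK, myeloid, dendritic and unresolved cells, parted by red lines, and within each by library (strip at the top) and total UMIs. Shades end at 5. Cd79a and Ms4a1 are dark mostly in B columns and Cd3e and Trac mostly in T columns, which the assignment of lineages used, while Mzb1 and Jchain are dark in B, plasma and unresolved columns.

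Most cycling B cells of wild type were germinal centre-like. Of the 12 genes listed for that state, 3 or more had a UMI in 20 of 29 cycling B cells (69.0%, 49.2 to 84.7) against 6 of 551 other B cells (1.09%, 0.401 to 2.35), 0 of 27 cycling T cells and 2 of 519 other T cells. Thinned to 2000 UMIs per cell, with cells keeping their class from all UMIs, the counts were 15 of 26 and 4 of 491. In Pdgfrb-Cre, 6 of 10 cycling B cells and 3 of 809 others held 3 or more, thinned 4 of 10 and 0 of 785, with 1 of 48 cycling T cells as background. Neither of the 2 Pdgfra-Cre cycling B cells did. None of these genes belongs to the 7 that chose the cells, but the list was chosen with earlier results of these data known. Cycling cells were also contrasted with resting ones by those 7 genes, so the difference is given as a description.

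Rgs13 (chr1:144138654-144177372, GENCODE M21 on GRCm38, as for the positions that follow), a brake on chemokine receptor signalling in germinal centres, was at 383 against 17.1 CPM (15 of 29 and 6 of 551 cells) in wild type and at 231 against 0.335 CPM (5 of 10 and 1 of 809) in Pdgfrb-Cre. Mef2b, a factor that switches on Bcl6, was at 195 against 5.22 CPM in wild type (17 of 29 and 8 of 551 cells) and found in 5 of 10 and 8 of 809 cells in Pdgfrb-Cre. S1pr2, the receptor that keeps B cells in the follicle centre, was at 73.9 against 5.22 CPM in wild type. Each of these 3 genes was thus seen in 10 to 17 of the 29 wild-type cycling B cells and in at most 8 of the 551 others.

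Basp1 was the member of the list with the largest log2 ratio (4.02, 10 CPM being added to both sides in all log2 ratios), with 716 against 34.7 CPM and a 20.7-fold difference. Mybl1, a MYB-family factor, was seen in 16 of 29 cycling and 3 of 551 other B cells of wild type, Gcsam, a germinal centre signalling adaptor, in 11 and 4, and Nuggc, a GTPase of germinal centres, in 9 and 1. Eaf2 was seen in 15 and 13 and Neil1, a DNA glycosylase, in 15 and 35. Bcl6, the repressor that defines the state, was less sharply divided, with 9 of 29 against 46 of 551 cells, and Fas, the death receptor, had 7 and 8. In the Pdgfrb-Cre library the genes named here were each seen in 2 to 6 of the 10 cycling B cells.

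**Figure D3:**
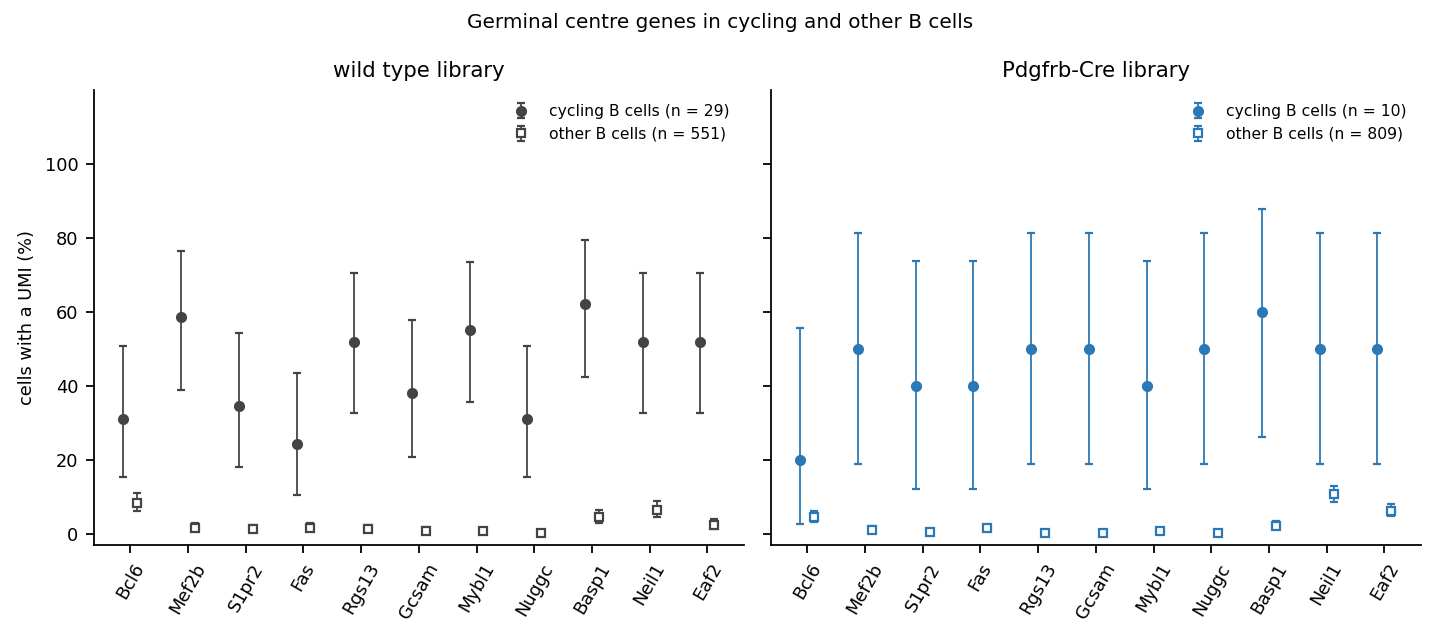
Percentage of cycling (filled) and other (open) B cells with a UMI of germinal centre genes of the list, in the wild-type library (left) and the Pdgfrb-Cre library (right), with exact 95% intervals for counting error. In wild type 9 to 18 of the 29 cycling B cells hold each gene shown apart from Fas (7 cells).

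In wild type, germinal centre genes and the switched constant region Ighg1 were mostly seen in the same cycling B cells. Of the 20 wild-type cells with 3 or more germinal centre genes, 18 held Ighg1 (the heavy chain of the switched isotype IgG1), 4 held Ighm (IgM) and 0 held Ighd (IgD, a mark of unswitched resting B cells). Of the 7 with none of the 12 genes, 7 held Ighm, 3 held Ighd and 1 held Ighg1. The 2 cells with 1 or 2 of the genes held both Ighm and Ighd. Median depths were 4233 UMIs (1116 to 32544) and 2513 UMIs (2031 to 13582) in the cells with 3 or more and with none. In Pdgfrb-Cre, of 6 cells with 3 or more germinal centre genes 3 held Ighg1, 3 held Ighg2b, 4 held Ighm and 2 held Ighd, and all 4 cells with none held Ighm, so Ighm and Ighd did not set the groups apart there. Ighm also had a UMI in 15 of 27 wild-type T members and 223 of 519 other T cells (median depths 3351 and 5189 UMIs), and in 16 of 48 and 365 of 1475 in Pdgfrb-Cre, so a UMI of it in a single B cell is near the background of free RNA. Ighd was seen in 0 of 27 and 30 of 519 wild-type T cells.

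Summed over all 29 wild-type cycling B cells, Ighg1 (chr12:113325240-113330523) reached 941 CPM against 48.9 CPM in other B cells, a log2 ratio of 4.01, and was seen in 19 of 29 against 60 of 551 cells, thinned 14 of 26 against 35 of 491. Ighd (chr12:113406604-113416324) was at 77.3 against 1050 CPM (13.6-fold lower, 9.03 to 21.5), in 5 of 29 against 484 of 551 cells, and 18 of its 23 UMIs were in 1 cycling cell (log2 ratio -3.60 with and -5.17 without it). Ighm was at 588 against 1665 CPM. Ighe (IgE) had 10 UMIs in 3 cycling B cells and 0 UMIs in 551 others. In Pdgfrb-Cre Ighg1 stood at 359 against 35.1 CPM, in 3 of 10 and 95 of 809 cells. Iglc1, a lambda light chain, was seen in 22 of 29 and 138 of 551 wild-type cells and in 7 of 10 and 102 of 809 Pdgfrb-Cre cells. In wild type the other lambda genes went the other way. Iglc2 was seen in 20 of 29 and 485 of 551 cells (log2 ratio -1.91) and Iglc3 in 16 and 384 (-0.83). In Pdgfrb-Cre Iglc2 was seen in 8 of 10 and 434 of 809 cells and Iglc3 in 6 and 196. Lambda constant genes are close copies of one another and may share reads.

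Genes of early B cell precursors were near absent from the cycling B cells. Rag1, Rag2 and Dntt, which cut and extend antibody genes during B cell development, had 0 UMIs in all 29 wild-type and 10 Pdgfrb-Cre members (0 of 29 allows up to 11.9% of cells with a UMI). Vpreb1 and Igll1, the surrogate light chain, were each in 1 of 29 and 1 of 10. Vpreb3, which mature B cells also use, was the exception, in 17 of 29 cycling against 141 of 551 other wild-type B cells.

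Across all genes, 2610 reached 50 CPM and 20 UMIs in cycling or other wild-type B cells, and 639 of them (24.5%) were at least 2-fold higher and 388 (14.9%) at least 2-fold lower in the cycling cells, with a median log2 ratio of 0.22. With mitochondrial, ribosomal protein and immunoglobulin genes left out of the total, 595 were higher and 666 lower. Those counts describe a contrast that the rule itself set. Of the germinal centre list 10 of 12 genes were measured and 10 were higher, with a median of 3.40. The largest ratios belonged to division genes outside the rule. Nusap1, which bundles spindle microtubules, had 109 UMIs against 1 UMI (log2 ratio 5.17), a 772-fold ratio with an interval of 136 to 30752. Stmn1, which destabilises microtubules, was at 884 against 22.3 CPM (4.79), and Hmgb2, a chromatin protein, at 3973 against 216 CPM (18.4-fold, 16.5 to 20.6). Cdca8, of the chromosomal passenger complex, followed at 4.66, histone genes Hist1h1b, Hist1h2ap, Hist1h3c and Hist1h2ae at 4.33 to 4.52, Cks1b at 4.32, H1fx at 4.31 (59 UMIs against 1, 418-fold, 72.1 to 16772) and Ccnb2 at 4.02 (50 UMIs against 2, 177-fold, 46.5 to 1502). Of the 63 Hist1h3c UMIs 32 were in 1 cell, with a log2 ratio of 3.60 without it, and histone gene copies may share reads.

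Every listed step of division was represented in these B cells. All 8 measured replication licensing genes were called higher (median log2 2.91), among them Mcm5 (3.29) and Mcm6 (2.82) of the helicase that opens origins. So were all 10 replication fork genes (2.13), with Lig1, the ligase of Okazaki fragments, at 3.69. All 8 nucleotide synthesis genes (2.89), all 7 replication histones (4.33), all 10 chromatin packaging genes (3.29), all 19 spindle and kinetochore genes (3.61) and 9 of 10 cyclins and kinases (2.67) were higher too, the last with Ccnd2 as the exception at 0.12. Ccnd3, the D-type cyclin that germinal centre B cells are known to need, was at 195 against 45.6 CPM in wild type and at 208 against 38.5 CPM in Pdgfrb-Cre. Cdkn1b, the inhibitor p27 of resting lymphocytes, was at 16.8 against 164 CPM in wild type.

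Resting and homing genes were low in the same cells. Of 10 resting B cell genes 9 were called lower and 0 higher (median log2 -2.35). Cd55 (log2 -4.11), which shields cells from complement, had 2 UMIs in the cycling cells, 41.5-fold lower (11.4 to 343). Fcer2a, the low-affinity IgE receptor CD23, was 8.44-fold lower, and Gpr183, which guides B cells to the outer follicle, had a log2 ratio of -2.89 that 1 cell with 9 of 12 UMIs moved (without it -4.18). Klf2 (-2.46), Ccr7 (-2.38) and Bcl2 (-2.33) were lower as well, and Bach2, at 0.50, was not. Fabp4, an endothelial and fat cell gene, stood at 26.9 against 334 CPM, and Ccl5 had 0 UMIs in cycling B cells against 221 UMIs in the others, at least 10.4-fold lower. Further lower genes of the 12 ranked were Gm31243 (-3.15), Man1a (-3.02), Cmah (1 UMI, 30.7-fold lower, 5.44 to 1216), Serpinb1a (3 UMIs, 14.5-fold lower, 4.92 to 70.7) and Fam43a (1 UMI, 26.4-fold lower, 4.68 to 1049).

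Energy genes differed by less than division genes. Of 18 nuclear oxidative phosphorylation genes 12 were called higher and 0 lower (median log2 1.16) and of 9 glycolysis genes 6 and 0 (1.52), while of 12 genes of the mitochondrial genome 0 were called (-0.15). Over all measured genes of this comparison 24.5% were called higher and 14.9% lower. Myc itself was lower in wild-type cycling B cells (-1.52, 40.3 against 134 CPM). Of 10 genes of its list 4 were higher, beside the 24.5% over all genes. Of 16 immediate early genes 13 were lower (median -1.50), with Junb at -2.57 and Nr4a1 at -2.52, and of 8 MHC class II genes 4 were lower (-0.89). Markers of other cell types moved with this contrast: the endothelial list summed to 40.3 CPM in cycling and 395 CPM in other B cells, the neutrophil list to 0 and 60.3 CPM, and the stromal list to 114 and 170 CPM, and their part in these differences was not tested.

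**Figure D4:**
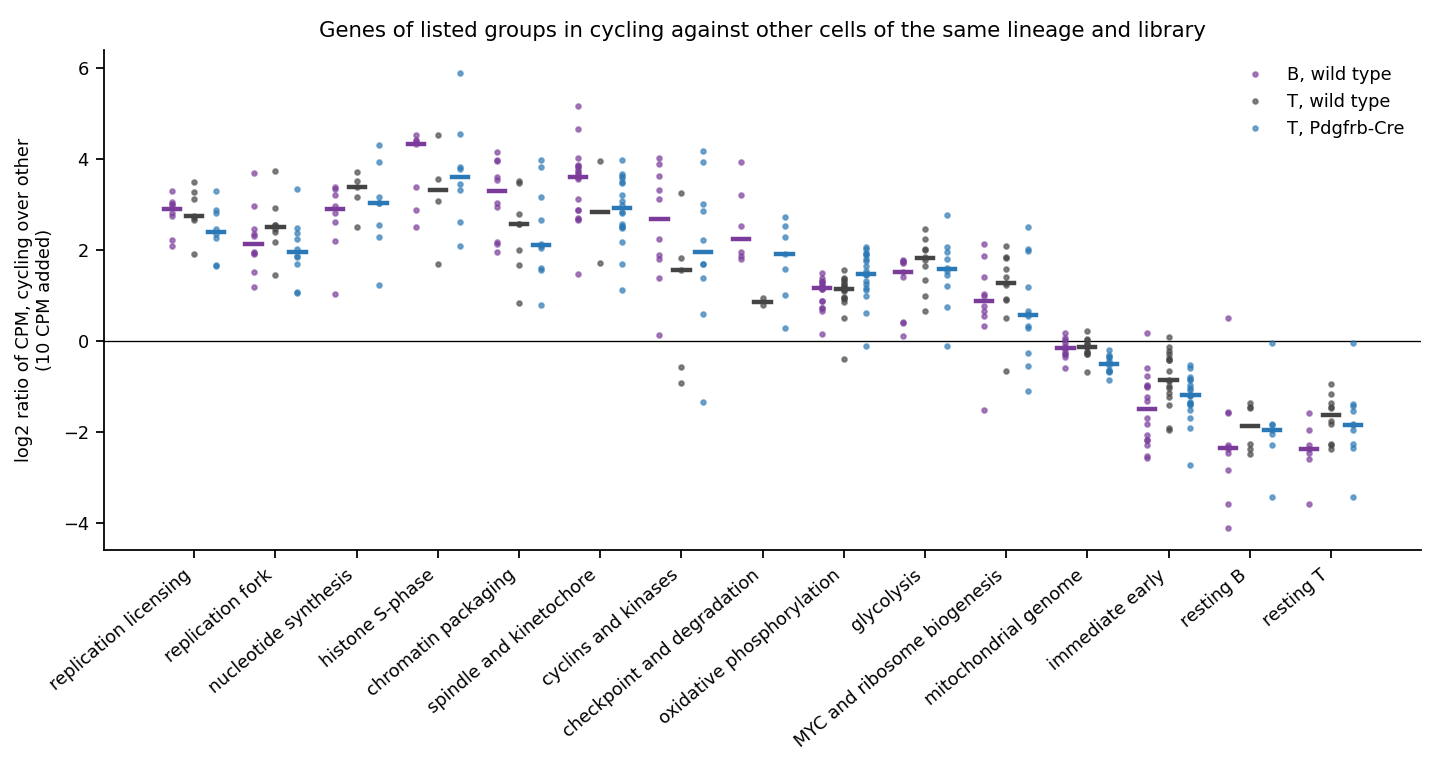
Log2 ratio of CPM (10 CPM added) in cycling over other cells of the same lineage and library for each measured gene of 15 listed groups (dots), with the median as a bar, for wild-type B, wild-type T and Pdgfrb-Cre T cells. Replication, histone, chromatin and spindle genes lie above 0, the mitochondrial genome lies near 0, and immediate early and resting genes lie mostly below.

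Cycling T cells of the wild-type and Pdgfrb-Cre libraries, which had enough of them to compare, both carried the division programme. In wild type 27 cycling T cells (221285 UMIs) were set beside 519 others, and in Pdgfrb-Cre 48 (1087858 UMIs) beside 1475. Of 2058 genes measured in wild type, 582 (28.3%) were at least 2-fold higher and 290 (14.1%) at least 2-fold lower, with a median log2 ratio of 0.25. Of 2890 in Pdgfrb-Cre, 1017 (35.2%) were higher and 316 (10.9%) lower, with a median of 0.42. With the total taken without mitochondrial, ribosomal protein and immunoglobulin genes, the splits were 420 higher and 666 lower in wild type and 1023 and 659 in Pdgfrb-Cre, and the medians moved to 0.02 and 0.20. Of 1896 genes measured in both libraries, 466 were called higher in both (80.1% of the wild-type and 45.8% of the Pdgfrb-Cre list). Another 124 were called lower in both (42.8% and 39.2%) and 4 went opposite ways. As for B cells, the rule set this contrast and nothing is read from the counts.

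Replication genes had some of the largest ratios. Hist1h1b, the linker histone H1.5, had log2 ratios of 4.53 in wild type and 5.89 in Pdgfrb-Cre, though 30 of its 56 wild-type UMIs were in 1 cell and the ratio without it was 3.58. Tyms (3.71 and 4.32), which makes thymidylate, Dut (3.38 and 3.94), which keeps uracil out of DNA, and Lig1 (3.74 and 3.35) followed. Stmn1 (4.66 and 4.03), Cdca8 (3.96 and 3.97), Spc24 (3.54 and 3.75) of the kinetochore and Cks1b (3.57 and 3.50) stood for mitosis, and Hmgb2 reached 2585 against 216 CPM in wild type and 3934 against 268 CPM in Pdgfrb-Cre. Lgals1, the lectin galectin-1 of activated T cells, was at 2852 against 182 CPM in wild type and at 2874 against 247 CPM in Pdgfrb-Cre. The ranked list also held Hist1h2ap (3.56 and 3.83) and 1500009L16Rik (3.67 and 3.90, or 2.58 in wild type without the cell that held 19 of 31 UMIs).

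By group, all 7 measured licensing genes (median 2.74) and all 8 fork genes (2.50) were higher in wild type, and all 8 (2.40) and all 10 (1.95) in Pdgfrb-Cre. Nucleotide synthesis gave 5 of 5 (3.38) and 8 of 8 (3.03), replication histones 4 of 4 (3.32) and 8 of 8 (3.61). Of spindle and kinetochore genes only 2 reached the minimum in wild type, both higher (2.84), and 18 in Pdgfrb-Cre, all higher (2.91). Glycolysis genes were higher for 9 of 10 (1.81) and 8 of 10 (1.58), and oxidative phosphorylation genes for 13 of 18 (1.15) and 17 of 19 (1.48). Cyclins and kinases were mixed, with 3 of 5 higher in wild type (1.56) and 8 higher and 1 lower of 10 in Pdgfrb-Cre (1.96). Ccnd2, a D-type cyclin, stood at -0.93 and -1.35, and only the second passed the 2-fold limit. Of checkpoint and degradation genes 0 of 2 were called in wild type (0.86) and 6 of 7 were higher in Pdgfrb-Cre (1.91). The mitochondrial genome again gave 0 calls of 12 in both. Over all measured genes 28.3% were higher and 14.1% lower in wild type, and 35.2% and 10.9% in Pdgfrb-Cre.

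Resting T cell genes were low in both libraries, with 10 of 10 called lower in wild type (median log2 -1.63) and 9 of 10 in Pdgfrb-Cre (-1.85). Klf2, the factor that keeps T cells quiescent and circulating, stood at 181 against 988 CPM in wild type and at 108 against 1266 CPM in Pdgfrb-Cre. Tsc22d3, the glucocorticoid-induced leucine zipper, had log2 ratios of -2.84 and -3.39, Satb1 -2.29 and -2.37, Foxp1 -2.26 and -1.84, Bcl2 -2.50 and -2.29, and Txnip, an inhibitor of glucose uptake, -1.83 and -2.45. Dusp10 (-2.67 and -2.55, with 1 wild-type UMI, 18.3-fold lower, 3.25 to 725), Zbtb20 (-2.97 and -2.49, with 2, 15.4-fold lower, 4.24 to 128), Ugcg (-2.26 and -2.35), Neurl3 (-2.06 and -2.20), Igfbp4 (-2.04 and -2.15) and Socs3 (-1.96 and -2.74, with 3, 6.04-fold lower, 2.04 to 29.5) completed the ranked genes. The endothelial list summed to 67.8 CPM in cycling and 370 CPM in other wild-type T cells, and the neutrophil list to 0 and 2276 CPM (0 of 27 members had a UMI, none of its 8 genes being seen), while in Pdgfrb-Cre the neutrophil list summed to 1.84 and 3.19 CPM. The part of those genes in the wild-type contrast was not tested.

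Of the subset genes, CD8 RNA differed most clearly between the cycling T cells of the wild-type and Pdgfrb-Cre libraries. In wild type the T members included few cells with CD8 or gamma-delta receptor RNA. Cd8a or Cd8b1, the chains of the CD8 coreceptor of cytotoxic T cells, had a UMI in 1 of 27 cycling (0.0937 to 19.0%) and 174 of 519 other T cells, and 2 or more UMIs of Trdc, the delta chain of the gamma-delta receptor, in 0 of 27 (which allows up to 12.8%) and 23 of 519. In Pdgfrb-Cre, Cd8a or Cd8b1 were seen in 20 of 48 cycling and 791 of 1475 other T cells, and Trdc in 8 of 48 and 73 of 1475. Thinned to 2000 UMIs, the wild-type CD8 counts were 0 of 20 against 125 of 451, and the Pdgfrb-Cre counts 15 of 48 (31.3%, 18.7 to 46.3) against 473 of 1459 (32.4%). Cells kept their class from all UMIs in these and the following thinned counts of T cell genes. In Pdgfrb-Cre the thinned share of other T cells lay within the interval of the cycling ones, and in wild type 0 of 20 allows up to 16.8%. For Trdc the intervals of cycling T cells overlapped between the libraries at either depth. The Pdgfrb-Cre intervals were 7.48 to 30.2% at full depth and 6.07 to 27.8% thinned (7 of 48, against 0 of 20 in wild type).

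Genes of regulatory and activated T cells were seen in more of the wild-type cycling than other T cells at full depth. Foxp3 (chrX:7573644-7595245), the factor that defines regulatory T cells, was seen in 8 of 27 cycling and 36 of 519 other T cells (81.3 against 19.8 CPM). Its 18 UMIs in cycling cells are under the 20 needed for a call, and the thinned intervals overlapped, at 3 of 20 (3.21 to 37.9%) and 21 of 451 (2.91 to 7.03%). In Pdgfrb-Cre it was seen in 7 of 48 and 52 of 1475 (15.6 against 10.5 CPM), thinned 1 of 48 and 34 of 1459. Il2ra (chr2:11642807-11693193), the high-affinity chain of the interleukin-2 receptor, was seen in 12 of 27 and 38 of 519 wild-type T cells, thinned 9 of 20 (45%, 23.1 to 68.5) and 14 of 451. In Pdgfrb-Cre the thinned counts were 6 of 48 (12.5%, 4.73 to 25.2) and 83 of 1459. One wild-type cell held 52 of the 82 Il2ra UMIs of its group. Without it the log2 ratio of cycling over other wild-type T cells went from 3.34 to 2.21. Il2ra is also used by activated T cells that are not regulatory, and it was found without Foxp3 in 8 of the 27 wild-type and 19 of the 48 Pdgfrb-Cre members.

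Ctla4, an inhibitory receptor of activated and regulatory T cells, was higher in cycling T cells of both libraries, at 348 against 144 CPM in wild type (15 of 27 cells) and at 502 against 138 CPM in Pdgfrb-Cre (33 of 48 cells). Of the 8 wild-type Foxp3 members 6 held Ctla4, and all 7 of Pdgfrb-Cre did. Cd4, the coreceptor of helper and regulatory cells, was found in 5 of 27 wild-type and 21 of 48 Pdgfrb-Cre members, thinned 1 of 20 and 7 of 48. Of the wild-type T members 15 of 27 held none of Cd4, Cd8a, Cd8b1 and Foxp3 and fewer than 2 Trdc UMIs, against 4 of 48 in Pdgfrb-Cre, so 15 of the shallower wild-type cells could not be placed in a subset.

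**Figure D5:**
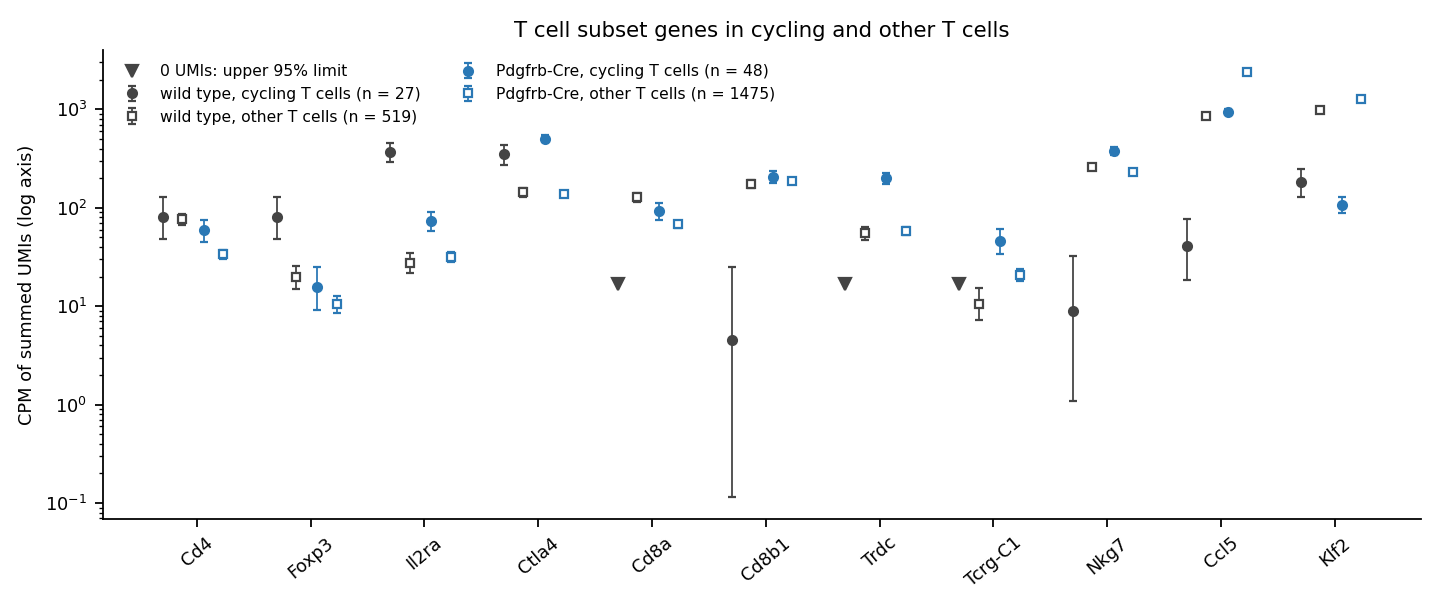
CPM of summed UMIs on a log axis for T cell genes in cycling (filled) and other (open) T cells of the wild-type and Pdgfrb-Cre libraries, with exact 95% Poisson intervals. Triangles stand at the upper bound of that interval where a group had 0 UMIs, as wild-type cycling T cells did for Cd8a, Trdc and Tcrg-C1.

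Effector genes differed in both directions. Of 9 measured genes of that list 6 were called higher and 3 lower in wild-type cycling T cells, and 4 higher and 1 lower in Pdgfrb-Cre. Over all measured genes 28.3% were called higher and 14.1% lower in wild type, and 35.2% and 10.9% in Pdgfrb-Cre. The Pdgfrb-Cre counts of the list are thus near the shares over all genes. The lower ones were Ccl5, a chemokine of memory and cytotoxic T cells (log2 -4.10 in wild type and -1.33 in Pdgfrb-Cre), and in wild type also Nkg7 (-3.84), a protein of cytotoxic granules, and Ifng (-2.30), the cytokine interferon gamma. Ccl5 was lower in CPM but, at full depth, not in its share of cells. It had a UMI in 8 of 27 cycling and 107 of 519 other wild-type T cells. In Pdgfrb-Cre it had one in 22 of 48 and 569 of 1475. Thinned, the counts were 3 of 20 and 71 of 451 in wild type and 13 of 48 and 523 of 1459 in Pdgfrb-Cre. In Pdgfrb-Cre, of the 20 members with Cd8a or Cd8b1, 15 held no Cd4. CD8 and Cd4 RNA met in 5 of 48 cycling and 8 of 1475 other T cells, and whether these barcodes hold more than 1 cell was not tested. There were 15 members that held CD8 RNA together with Nkg7 and 13 together with Gzmb, the protease granzyme B. Of the 8 members with 2 or more Trdc UMIs, 7 held Cd163l1, a scavenger receptor of gamma-delta T cells, and 6 held Il17a, the cytokine interleukin-17A. Il17a was seen in 16 of 48 members, 8 of them with Cd4, but 1 cell held 326 of its 628 UMIs, and the log2 ratio of cycling over other T cells was 1.85 with and 0.86 without it, the latter under 2-fold. In wild type all 31 Il17a UMIs were in 1 of 27 cells, and without it the log2 ratio went from 2.74 to -1.16. Gzmb was at 302 against 37.1 CPM in Pdgfrb-Cre (21 of 48 cells) and at 167 against 9.22 CPM in wild type (3 of 27 cells). Tnfrsf4, the costimulatory receptor OX40, was at 199 against 50.3 CPM in wild type and at 368 against 81.8 CPM in Pdgfrb-Cre. Icos, another costimulatory receptor, was just past the 2-fold limit in both, at 221 against 110 CPM in wild type and at 385 against 191 CPM in Pdgfrb-Cre. Without the cell with most of its UMIs, its log2 ratio went from 0.95 to 0.62 in wild type. In Pdgfrb-Cre it went from 0.97 to 0.88, and both are under 2-fold. Tnfrsf18 and Cxcr6, also called higher in wild type, went from 1.27 and 1.41 to 0.84 each in the same way. Wild-type Gzmb (2.40) and Tnfrsf4 (1.37) stayed past 2-fold.

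Genes of group 2 innate lymphoid cells, a cell type that can share these genes with T cells, were given as a check on the T label. The list of 8 summed to 316 CPM in wild-type cycling T cells (70 UMIs in 14 of 27 cells, Il5, Calca and Arg1 at 0), against 146 CPM in other T cells, and to 531 against 312 CPM in Pdgfrb-Cre. Of T cell genes, Cd3g was seen in 22, Trac in 20 and Trbc2 in 25 of the 27 wild-type members, and 2 members had none of Cd3d, Cd3e and Cd3g. In Pdgfrb-Cre all 48 members held Cd3g and Trbc2. Whether any of the 2 wild-type cells is an innate lymphoid cell was not tested.

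Cycling T cells were then compared directly, Pdgfrb-Cre over wild type. Of 2338 genes measured, 246 (10.5%) were at least 2-fold higher and 71 (3.04%) lower, with a median log2 ratio of 0.18, against 312 (13%) and 208 (8.68%) of 2397 in the other T cells of the same libraries. Trdc (chr14:54142851-54148868) had 217 UMIs in Pdgfrb-Cre members and 0 in wild type, at least 14.7-fold higher, while in other T cells it differed little (58.0 and 54.9 CPM). Those 217 UMIs were in 9 of 48 members, 49 of them in 1 cell. By cells with 2 or more UMIs, 8 of 48 and 0 of 27, the intervals overlapped (7.48 to 30.2% and up to 12.8%). Cd8b1 (224 UMIs against 1, 45.6-fold, 8.09 to 1808, with a log2 ratio of 0.09 in other T cells), Cd8a (at least 6.78-fold higher, with a log2 ratio of -0.82 in other T cells) and Nkg7 (413 UMIs against 2, 42.0-fold, 11.6 to 348, and 230 against 262 CPM in other T cells) likewise differed in the cycling cells and not, or the other way, in the rest. The NK list moved with them, at 357 CPM (388 UMIs) in Pdgfrb-Cre and 40.7 CPM (9 UMIs) in wild-type members, 347 and 1 of those UMIs being Gzma, a granzyme that cytotoxic T cells also use, and Klra4 and Klra8 being at 0. The stromal list summed to 31.3 and 185 CPM, and the part of either list was not tested. Trdc, Cd8a, Cd8b1 and Nkg7 are the subset and effector markers described above, so the comparison repeats that difference across the table.

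Other genes higher in Pdgfrb-Cre cycling T cells were Ccl5 (4.24, and 1.47 in other T cells), Ms4a4b (4.22 and 1.31, from 466 UMIs against 3, 31.6-fold, 10.7 to 154), Ly6c2 (2.98 and 0.34, from 192 against 3, 13.0-fold, 4.39 to 63.7), a marker of memory T cells, and Bcl2a1d (2.98 and 2.14, from 152 against 2, 15.5-fold, 4.21 to 129), a member of a family of near-identical copies. Cd163l1, H2-Eb1, Plac8 and Ccl4 had 0 UMIs in wild-type members and were at least 6.92-, 5.90-, 5.76- and 5.42-fold higher. In other T cells their log2 ratios were 1.34, 2.24, 0.58 and 1.38, with H2-Eb1, an MHC class II chain, at 60.7 against 4.96 CPM, so all but Plac8 were more than 2-fold higher in both states. A single Pdgfrb-Cre cell held 50 of the 87 H2-Eb1 UMIs and another 43 of the 80 Ccl4 UMIs, and without them the log2 ratios were 2.21 and 2.15.

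Lower in Pdgfrb-Cre were Hspa1a and Hspa1b, near-identical heat shock genes that may share reads, at -3.16 and -3.89, and at -4.29 each in other T cells. One Pdgfrb-Cre cell held 155 of the 161 Hspa1a UMIs of its group, and without it the ratio was -6.48. Without the wild-type cell that held 133 of 310 UMIs it was -2.63. Gdpd3 (1 UMI against 21, 103-fold lower, 16.6 to 4269, and a log2 ratio of -5.05 in other T cells), AC160336.1 (-2.87 and -2.23), Gm8797 (-2.80 and -3.31), Gm47283 (-2.25 and -1.29) and Jun (-2.21 and -1.17) were lower in both states as well. Nrn1 had 46 UMIs in 8 of 27 wild-type and 4 UMIs in 2 of 48 Pdgfrb-Cre members (-3.99, and -0.54 in other T cells), and Slamf1 was at -2.31 (-0.62), or -1.56 without the wild-type cell that held 17 of 35 UMIs. There were 2 ranked differences that fell under 2-fold without 1 wild-type cell: Gm16222 (37 UMIs in 1 cell against 0, at least 60.6-fold lower, with no UMI in any other T cell of either library) and Ncoa7 (16 of 20 UMIs, -2.19 with and -0.43 without the cell). Il2ra went from -2.19 to -1.06 without the cell that held 52 of 82 wild-type UMIs and stayed past 2-fold.

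Lists of the division programme went different ways between the 2 groups of cycling T cells. Of 7 licensing genes 1 was called lower in Pdgfrb-Cre (median -0.43), and of 9 fork genes 0 were called (-0.47). Of 18 spindle and kinetochore genes 7 were called higher (0.72), as were 4 of 8 replication histones (0.93) and 2 of 4 checkpoint and degradation genes (1.03). All 3 DNA repair genes measured were called lower (-1.23). Medians were near 0 for oxidative phosphorylation (19 measured, 0 called, 0.08) and glycolysis (11 measured, 1 called lower, -0.06). Over all genes in this comparison 10.5% were called higher and 3.04% lower, and the median was 0.18.

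The balance of S-phase to G2 and mitosis RNA differed in the same direction. UMIs of the licensing, fork and nucleotide lists, taken over UMIs of the spindle and checkpoint lists, gave 2.56 in wild-type cycling T cells (2.29 to 2.86, more S-phase UMIs in 26 of 27 cells) and 1.22 in Pdgfrb-Cre cycling T cells (1.17 to 1.27, more in 31 of 48 cells). Other T cells gave 1.73 and 0.985, so the wild-type value was the higher of the pair in other T cells as well. Cycling B cells gave 0.987 in wild type (0.915 to 1.06) and 1.03 in Pdgfrb-Cre (0.912 to 1.16), with 13 and 4 cells holding more S-phase UMIs and 16 and 6 holding more of the other kind. These lists do not contain the 7 rule genes, and no phase was called per cell.

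The remaining cycling leukocytes were few and are described cell by cell. The wild-type plasma cell had 78638 UMIs, the most of any member, with 411 UMIs of Mzb1, 867 of Jchain, which links antibody polymers, 2074 of Ighg2b and 5587 of Igkc. Its S-phase and G2 or mitosis lists gave 79 and 312 UMIs. The same barcode held UMIs of 5 of the 8 dendritic genes, and whether it holds more than 1 cell was not tested. One Pdgfrb-Cre plasma cell (31790 UMIs) held 244 UMIs of Mzb1, 795 of Ighg3 and 3156 of Igkc. The other (33164 UMIs) had 1 UMI of Txndc5 and 2 of Xbp1 and no Mzb1 or Jchain, so its name rests on 2 genes of protein folding that other cells use.

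Each library held 1 cycling NK cell. The wild-type cell (12254 UMIs) had 5 UMIs of Ncr1, the receptor NKp46, 8 of Klra4 and 5 of Eomes, the Pdgfra-Cre cell (7066 UMIs) 2 of Ncr1, 11 of Klre1 and 124 of Gzma, and the Pdgfrb-Cre cell (17762 UMIs) 8 of Ncr1 and 15 of Gzma. Both wild-type myeloid members were macrophage-like, with 19 and 8 UMIs of Lyz2, 5 and 5 of Adgre1 (F4/80) and 29 and 18 of C1qa, the complement chain. Of the 5 Pdgfrb-Cre myeloid members 4 held Lyz2, with 222, 100, 32 and 6 UMIs, and Csf1r, the receptor for macrophage growth factor. The fifth had neither and rested on 17 UMIs of Cd14 and 1 each of Cd68 and Adgre1. Of these 5 only 1 held C1qa, with 37 UMIs.

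All 5 dendritic members, 4 from Pdgfrb-Cre and 1 from Pdgfra-Cre, held Flt3, Xcr1, Clec9a and Batf3, the genes of type 1 conventional dendritic cells, which take up dead cells and present them to CD8 T cells. The Pdgfra-Cre cell (27932 UMIs) had 5, 6, 5 and 4 UMIs of these. In Pdgfrb-Cre 4 of 25 dendritic leukocytes cycled (16%, 4.54 to 36.1), and in wild type 0 of 27 (up to 12.8%), with overlapping intervals. Thinning left 5 and 9 dendritic leukocytes and no dendritic member, so it gave no comparison.

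In the Pdgfra-Cre library 3 of the 4 cycling T cells held CD8 RNA without Cd4, and all 3 also held Nkg7 and Gzmb. The fourth held Foxp3 (2 UMIs), Il2ra (10), Ctla4 (11), Il1rl1 (18), which encodes the interleukin-33 receptor ST2, Areg (81), which encodes the tissue repair factor amphiregulin, and Gata3 (7), a set known for regulatory T cells of adipose tissue. One of the CD8 cells (6807 UMIs) held Trac and Trbc2 but no Cd3d, Cd3e or Cd3g. Of the 2 cycling B cells, 1 had 44395 UMIs with 38 UMIs of Cd79a, 61 of Ighm and 3 of Ighd, and 52 UMIs of Xist, the RNA of the inactive X chromosome, with no Y-linked UMI. Of the 26 B leukocytes of that library 13 held 3 or more Xist UMIs and no Y-linked UMI, against 16 of its 440 leukocytes, while 66.5% of its kept barcodes held a Y-linked UMI. The labels give no sex and no pooling, and nothing above on Pdgfra-Cre B cells is read as a result. The other cell had 2700 UMIs with 1 UMI of Cd79a and 2 of Cd79b.

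The 9 unresolved members had few lineage genes or equal numbers from 2 lists. In wild type 6 cells had a median of 1724 UMIs, and 1 of them had no UMI of any of the 6 lineage lists. Stromal genes, a possible admixture in this tissue, summed to 146 CPM over all wild-type members (94 UMIs in 32 of 66 cells), 137 CPM in Pdgfra-Cre (20 UMIs in 7 of 9) and 63.2 CPM in Pdgfrb-Cre (99 UMIs in 37 of 72). Mpo, Elane and Prtn3, which mark myeloid progenitors, were at 0 in the wild-type and Pdgfra-Cre members. Tert itself had 1 UMI in the wild-type cycling T cells and 0 UMIs in those of Pdgfrb-Cre, too few to compare.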

How the data were processed

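Single-cell RNA was captured with 10x 3' v3 chemistry from 3 libraries, per the labels' protocols. The deposited files hold UMI counts per gene and barcode that the authors made with Cell Ranger 3.1.0 and STAR 2.6 on mm10, per the submitters' processing notes. The counts were used as deposited, for 31053 features, of which 99.9% of IDs were in GENCODE M21.

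The members, lineage lists and gene lists were chosen with earlier results of these data known. UMIs were summed over the cells of a library, lineage and state (cycling, or other: a leukocyte of the lineage with 0 of the 7 cycle genes) and given as CPM of that sum. Shares have exact Clopper-Pearson intervals, CPM exact Poisson intervals and ratios exact conditional binomial intervals, all at 95%. A gene was called at a 2-fold ratio of CPM with at least 50 CPM and 20 UMIs in the higher group. A group with 0 UMIs was set at 3 counts over the group for a lower bound. No test was made, since each genotype is 1 library, and the labels do not say how many animals a library holds. Named genes are those of the fixed lists and, in each comparison, the 12 highest and 12 lowest log2 ratios among measured genes, by the smaller ratio where both libraries enter. Mitochondrial, ribosomal protein, immunoglobulin variable, Y-linked, rule and lineage genes were not ranked, nor was Xist. The values of 2 genes of these lists are not reported here, though they count in the totals given for a list.

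Doublets were kept. The barcodes with the highest Scrublet scores (scanpy 1.11.5) were marked, in numbers preset by the count of kept barcodes. They were 60, 16 and 130 barcodes, 0, 0 and 3 of them members. Leaving them out was an alternative, beside other limits of the rule, thinning, lineage by single genes, other totals, 1 CPM added, no minimum and means over cells. Python 3.11.15, numpy 2.4.6 and scipy 1.17.1 were used. Of the steps, the ratios and their intervals were tested on simulated Poisson sums. Those sums held no variation between cells, so the test does not cover genes with many UMIs in 1 cell.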

Additional observations from a re-analysis of the deposited data

Results flagged for a closer look

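Of 1896 genes measured in T cells of both libraries, 4 were called in opposite directions (cycling against other) in wild type and Pdgfrb-Cre. The difference between the libraries was not tested. Slamf6, a receptor of T cell contacts, had a log2 ratio of -1.39 in wild type (11 UMIs in cycling and 414 in other T cells) and 0.93 in Pdgfrb-Cre (81 and 324). Without the cell that held 12 of the 81 UMIs, the Pdgfrb-Cre ratio was 0.76, under 2-fold. Trdc had -2.70 in wild type (0 and 155 UMIs, in 0 of 27 and 29 of 519 cells) and 1.62 in Pdgfrb-Cre (217 and 546). Icam1, an adhesion molecule of activated cells, had 0.96 in wild type (27 and 163 UMIs) and -1.09 in Pdgfrb-Cre (84 and 1658). Without the cell that held 8 of the 27 UMIs, the wild-type ratio was 0.75, under 2-fold. Actr10, a dynactin subunit, had -0.99 in wild type (5 and 154 UMIs) and 1.28 in Pdgfrb-Cre (110 and 337).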

How the results depend on the processing

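No paired analysis was possible because each genotype is 1 library. Leaving out marked doublets, or asking for 4 cycle genes, 4 leukocyte UMIs, 1000 genes or a lineage lead of 2 genes, moved none of the shares or counts beyond its interval or 1.5 times. With 2 of 7 cycle genes the wild-type share of leukocytes was 6.71% and that of T cells 7.19%. With at most 5% mitochondrial UMIs the share of leukocytes was 5.48% in wild type and 5.02% in Pdgfrb-Cre, of T cells 6.06% and 6.29%, and wild-type members were 27% B and 54.1% T. Thinned, the shares of leukocytes were 2.81% and 1.88%, of B cells 2.98% and 0.407%, of wild-type T cells 1.82%, and the members were 28.6% T in wild type and 6.38% B in Pdgfrb-Cre. By single lineage genes wild-type members were 28.8% B and 24.2% T.

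Without mitochondrial, ribosomal protein and immunoglobulin genes in the total, 666 genes were lower in wild-type B cells, 666 in wild-type T cells and 659 in Pdgfrb-Cre T cells, and Ighd had a log2 ratio of 0 because it was among the genes removed. With no minimum, higher and lower genes numbered 2605 and 5262 in wild-type B cells, 3087 and 5825 in wild-type T cells, 3867 and 5116 in Pdgfrb-Cre T cells, and 3434 and 2342 between cycling T cells of the libraries. By means over cells 443 genes were lower in wild-type T cells and 546 higher between cycling T cells. With 1 CPM added, 37 of the 96 ratios of ranked genes moved. Leaving out the member with most UMIs of a gene (in each library at once between libraries), chosen after seeing the data, moved 6 and brought Gm16222 to a log2 ratio of 0. Depth limits the wild-type subsets most, with 14 of 66 members under 2000 UMIs.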
